A study of Rattus norvegicus with 18 samples.

Results

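Angiotensinogen and angiotensin-converting enzyme are the substrate and a processing enzyme of the renin-angiotensin system, and 2 gene identifiers were taken for them, ENSRNOG00000018445 on chromosome 19 for Agt and ENSRNOG00000007467 on chromosome 10 for Ace. Both were found on the named chromosomes among the 32883 genes of the count table. Of the 2, 1 had any counts, against 21505 of all genes. The RNA-seq libraries came from visceral white adipose tissue (vWAT) of 18 male rats, 6 in each of 3 groups. The WKY group held Wistar-Kyoto rats without TMAO, the normotensive strain, whose age is not given in the sources used here. The SHR-Water group held spontaneously hypertensive rats (SHRs) that were 7 to 8 weeks old at the start and drank tap water for 22 weeks. The SHR-TMAO group held SHRs of the same age that drank water with 1 g/L trimethylamine oxide (TMAO) for the same 22 weeks. WKY and SHR are inbred strains with many fixed genetic differences, so the contrast with WKY compares strains as well as blood pressure.

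Angiotensinogen is a secreted protein from which renin releases angiotensin I, and angiotensin-converting enzyme trims angiotensin I to angiotensin II, a peptide that constricts vessels and acts on the kidney and adrenal gland. The liver is the main source of circulating angiotensinogen, and fat cells make and secrete it too. Somatic angiotensin-converting enzyme also degrades bradykinin, and it carries a pair of similar catalytic domains that arose by duplication within the gene.

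Library totals lay between 10774133 and 18874161 counts. SHR-TMAO replicate 3 stood apart in 1 respect: 142 genes were above 2 CPM (counts scaled to a common library total) and at least 8 times their level in every other library, where no other library had more than 2 such genes. The libraries differed in mitochondrial share and in whether long or short genes took more of the counts, and these values stand beside the results they move with. The identifiers carry no symbols and matched none in the reference table, so the adipose marker genes and the other genes of the pathway were not analysed here, and the tissue label was not checked against markers.

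In Rnor_6.0, the rat genome build of the deposited table, Agt spans chr19:57321640-57333433 on the minus strand, with 5 exons and 1933 exonic bases, and no other gene overlaps it. The next gene above it, 8505 bases away, spans 36964 bases. In the RefSeq annotation, which follows the newer build GRCr8, the gene on that side of Agt is Capn9, and its span is also 36964 bases. On the other side of Agt, RefSeq has Cog2 with a span of 38768 bases, while the gene there in Rnor_6.0 spans 32345 bases. The span of a neighbour thus matched on the side of Capn9 alone, where the position of ENSRNOG00000018445 did not go against its label. Agt itself spans 20478 bases in RefSeq, against 11794 bases for ENSRNOG00000018445 in Rnor_6.0, so its own span did not match.

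The label of the second gene did not hold up in the same way. ENSRNOG00000007467 spans chr10:94192556-94206535 on the plus strand, with 14 exon blocks and 2984 exonic bases. A gene of the same strand, ENSRNOG00000062101, ends 4734 bases before it and spans 17057 bases (chr10:94170766-94187822) with 22 exon blocks and 3763 exonic bases. In ENSRNOG00000062101 a run of 6 consecutive exons, of 144, 192, 98, 173, 224 and 145 bases, occurs 2 times along the gene, and ENSRNOG00000007467 has no repeated run. A run of 5 exons of the same sizes is shared by both genes. In RefSeq, Ace is followed directly by a related gene, Ace3, and then by Kcnh6, so that a pair of related neighbours lies at this locus and the second of them is not Ace. RefSeq has Cyb561 before Ace, and from Cyb561 to Kcnh6 the spans are 10683, 20118, 15027 and 21988 bases. The Rnor_6.0 rows from ENSRNOG00000007433 to ENSRNOG00000008078 span 10629, 17057, 13980 and 20923 bases. By this order ENSRNOG00000062101 stands in the place of Ace and ENSRNOG00000007467 in that of Ace3, though no span is equal. Sequence was not compared. Both rows are therefore called by their identifiers, the name Ace is given to neither row, and no level is stated under that name.

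**Figure D1:**
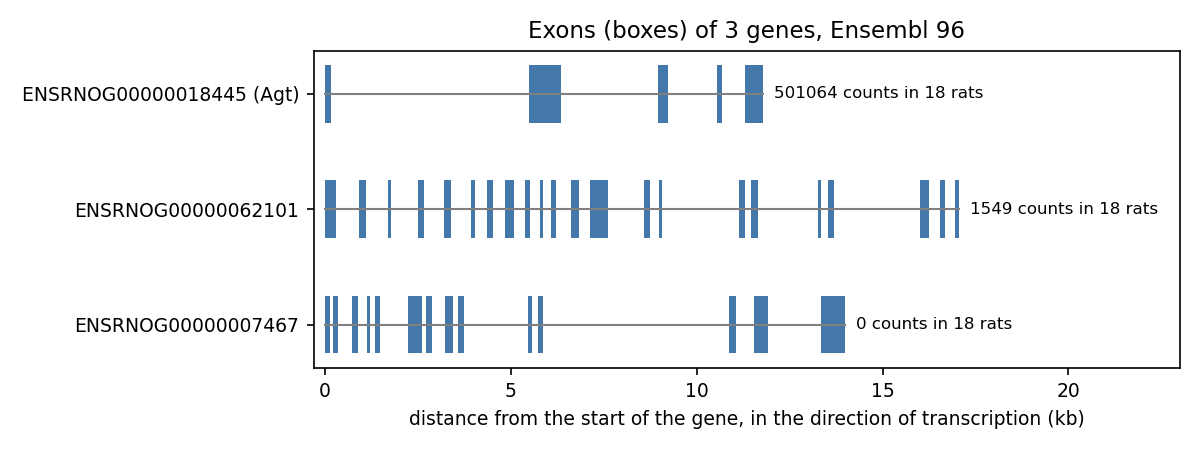
Exons (boxes, width to scale) of ENSRNOG00000018445, ENSRNOG00000062101 and ENSRNOG00000007467 by distance from the start of the gene in kb, in the direction of transcription, with the counts summed over 18 rats. Agt had 501064 counts, ENSRNOG00000062101 had 1549 and ENSRNOG00000007467 had 0.

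ENSRNOG00000007467 had 0 counts in each of the 18 libraries, of 287281308 counts in all. With 3 counts as the upper limit that a count of 0 allows, a library allowed at most 0.159 to 0.278 CPM, or 0.0533 to 0.0933 FPKM (CPM per kilobase of exon). On the FPKM scale, which is per length, Agt was at least 7798-fold higher than this limit in SHR-TMAO replicate 2, the lowest ratio of the 18 rats, and at least 35823-fold higher in WKY replicate 4, the highest. These limits cover counting error only. No test between groups could be made on this gene.

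Agt was among the abundant transcripts of vWAT. Of 12602 genes tested in all 3 comparisons, 55 had a higher mean CPM, and on the FPKM scale 75 genes of the nuclear genome had a higher mean over the 18 rats. Its rank by FPKM among all genes ran from 50 in WKY replicate 4 to 174 in SHR-TMAO replicate 2. A single library held 15155 to 69617 counts of Agt, so that counting error was 0.379% to 0.812% of the value, noise of library preparation not included.

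The level of Agt was highest in WKY, lower in SHR-Water and lowest in SHR-TMAO. After TMM normalization, WKY rats ranged from 1411 CPM through a median of 2076 to 4465 CPM. SHR-Water rats ranged from 884 through a median of 1442 to 2403 CPM. SHR-TMAO rats ranged from 1067 through a median of 1365 to 1715 CPM. The highest rat by far was WKY replicate 4, at 4465 CPM against 2322 CPM in the next WKY rat. SHR-Water replicates 1 and 6, at 2369 and 2403 CPM, were above every WKY rat except replicate 4, and SHR-Water replicates 2, 3 and 4, at 1025, 1210 and 884 CPM, were below every WKY rat. All 3 groups overlapped.

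**Figure D2:**
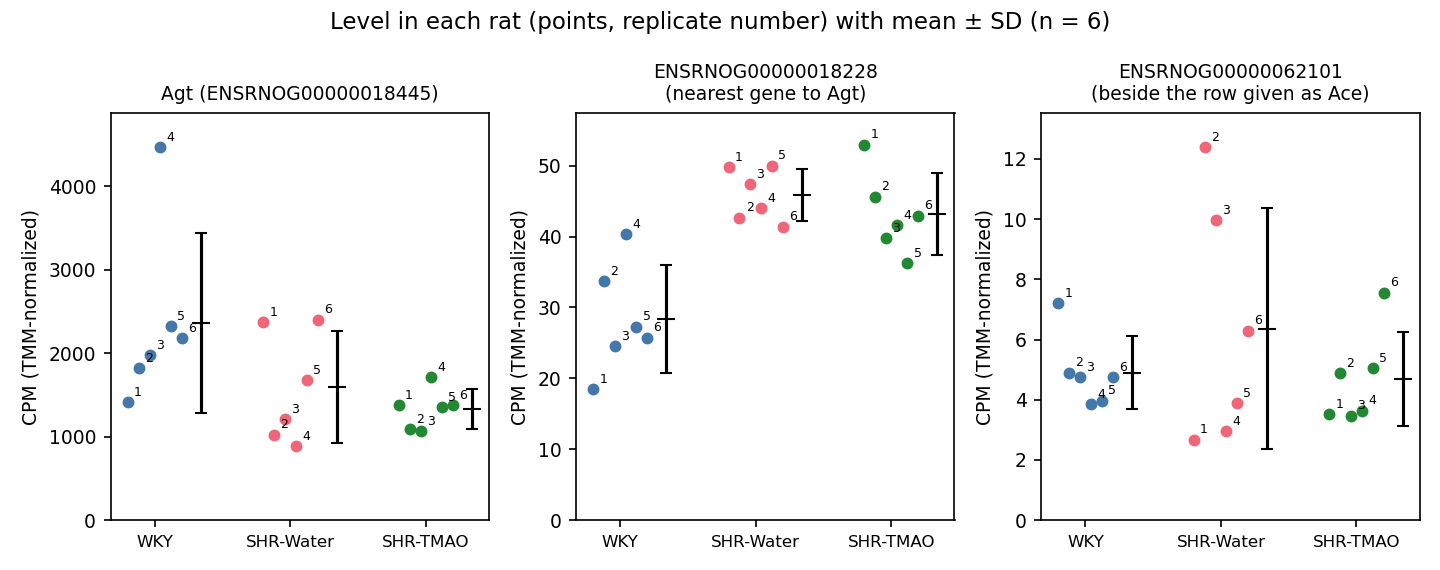
CPM (linear axis from 0) of Agt, of its nearest gene ENSRNOG00000018228 and of ENSRNOG00000062101 in each rat, with the replicate number at each point and black marks for mean ± SD (n = 6). For Agt, 1 WKY rat lies at 4465 CPM and the SHR-TMAO rats lie close together between 1067 and 1715 CPM, while for ENSRNOG00000018228 every SHR-Water rat is above every WKY rat.

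In group means, Agt stood at 2361 ± 1078 CPM in WKY, against 1594 ± 669 CPM in the SHR-Water rats and 1330 ± 237 CPM in the SHR-TMAO rats (SD, n = 6 for each group). Without WKY replicate 4 the WKY mean was 1940 ± 353 CPM (n = 5), and the order of the groups was the same. Per length, the means were 1204 ± 464, 824 ± 291 and 668 ± 120 FPKM in the same order. Agt took 0.233%, 0.159% and 0.129% of all counts. The order of the groups was thus the same on the scale of shares, which involves no normalization factor.

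The first comparison asked whether Agt differed between the hypertensive and the normotensive strain. The level in SHR-Water was 0.67 of that in WKY, a log2 fold change of -0.58 ± 0.32 (SE) with a 95% interval of -1.28 to 0.11. The difference did not pass the test (edgeR quasi-likelihood test, Benjamini-Hochberg adjusted p = 0.268, n = 6 per group), in a comparison that called 6.13% of 13017 genes. A two-sided exact permutation test of the mean log2 CPM over all 924 assignments gave p = 0.119, or 0.179 adjusted over the 3 comparisons. In SHR-Water, 4 of 6 rats were below the WKY median. Without WKY replicate 4 the log2 fold change fell in size to -0.29, with an edgeR adjusted p of 0.544. With limma voom, which called 4697 genes, the log2 fold change was -0.66 with an adjusted p of 0.0557.

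The second comparison asked whether Agt differed with TMAO within the SHR strain. Agt in SHR-TMAO was at 0.85 of its SHR-Water level, with a log2 fold change of -0.24 ± 0.25 (SE) with a 95% interval of -0.78 to 0.30. The edgeR adjusted p was 0.575 and the exact permutation p was 0.522 (n = 6 per group). The interval held values from a decrease to 0.58 of the SHR-Water level to an increase to 1.23 times that level. The edgeR test called 0.0% of 12852 genes here, 0 genes, with 3212 genes at an unadjusted p under 0.05. DESeq2 called 1187 genes, limma voom 4103 and the edgeR fit of all 18 rats 1. Leaving out SHR-Water replicate 1 gave 1863 calls by edgeR and leaving out SHR-TMAO replicate 1 gave 1508. For Agt, these 5 alternatives gave adjusted p of 0.569 to 0.930, and limma voom put its log2 fold change at 0.030.

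The third comparison set the treated SHRs against the normotensive strain, with strain and treatment both different. The level in SHR-TMAO was 0.56 of that in WKY, a log2 fold change of -0.84 ± 0.25 (SE) with a 95% interval of -1.37 to -0.31. All 6 SHR-TMAO rats were below the WKY median, and 5 of 6 were below every WKY rat. The exception was SHR-TMAO replicate 4, and the lowest WKY rat, replicate 1, was also the 1 WKY rat within the SHR-TMAO range. The edgeR test gave a Benjamini-Hochberg adjusted p of 0.0517, which missed the threshold of 0.05, in a comparison that called 7.75% of 12833 genes. Over all 924 assignments the exact permutation test gave p = 0.00433, or 0.0130 adjusted over the 3 comparisons (n = 6 per group). The unadjusted edgeR p was 0.00417, close to it, and 8.06% of genes had a smaller edgeR p. The edgeR value was adjusted over all genes tested and the permutation value over 3 comparisons, so the adjusted values are not alike. The log2 fold change did not reach the size of 1 that the study's methods also ask for.

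The call in SHR-TMAO against WKY depended on the fit. The adjusted p was 0.0130 with DESeq2, which called 11.1% of its genes, and 0.0261 with limma voom, which called 20.0%. In edgeR it was 0.0297 with library totals in place of TMM factors, where 7.66% of genes were called, and 0.0342 with the gene length trend of each library as an offset, where 10.0% were called. Without WKY replicate 4 the log2 fold change was -0.54, with an edgeR adjusted p of 0.0459. There the unadjusted edgeR p was 0.00524, above the 0.00417 of the reported fit, while 1563 genes were called against 995. The lower adjusted p of Agt thus went with more calls over all genes. Without WKY replicate 1 the log2 fold change was -0.95 (edgeR adjusted p = 0.0349, 644 genes called). Without WKY replicate 2 it was -0.91 (edgeR adjusted p = 0.0398, 1336 genes called). Without SHR-TMAO replicate 3, the library that stood apart, it was -0.77, with an edgeR adjusted p of 0.111 and 714 genes called. Under every fit run, Agt was lower in SHR-TMAO than in WKY. Each group enters 2 of the 3 comparisons, so the 3 values are not independent. In bulk tissue, fewer cells that express Agt and less Agt RNA per cell cannot be told apart.

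**Figure D3:**
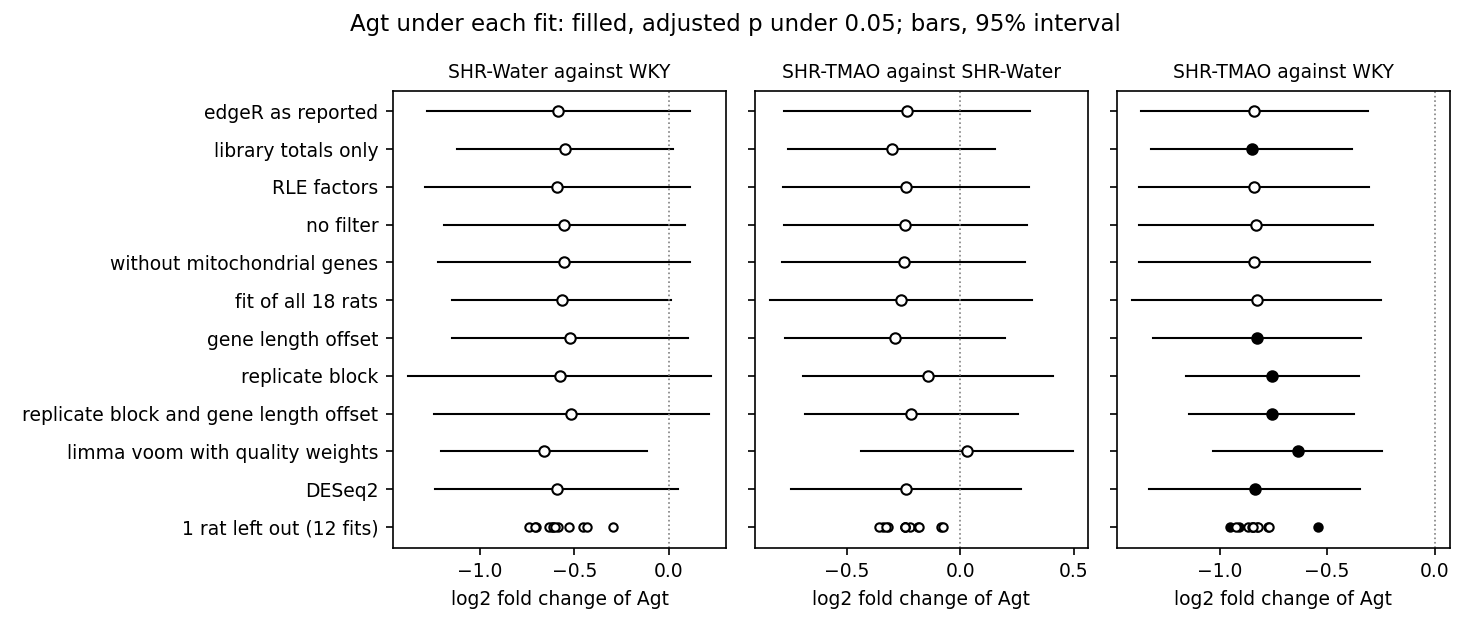
Log2 fold change of Agt in each of the 3 comparisons (panels) under each fit, with 95% intervals as bars (Wald intervals for DESeq2), and in the bottom line the 12 fits that each leave out 1 rat, without intervals. Filled points have an adjusted p under 0.05, and they occur in the panel of SHR-TMAO against WKY alone, where the reported fit lies at -0.84.

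The spread of Agt between rats was wide in SHR-Water, and in WKY it rested on 1 rat. The SD of log2 CPM was 0.56 in WKY and 0.62 in SHR-Water, against 0.26 for SHR-TMAO. Among 1358 genes with a mean above 100 CPM, 90.8% had a smaller SD in WKY and 89.5% in SHR-Water, while 54.0% had a smaller SD in SHR-TMAO. Without WKY replicate 4 the SD in WKY was 0.28, and 58.5% of these genes had a smaller one, so that SHR-Water alone was wide without that rat. The difference in spread between groups was not tested.

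The level of Agt was set against the gene length trend of the libraries. For each library, the trend is the rank correlation (Spearman's rho) across genes of exon length with how far each gene lay above or below its average over the rats, and genes are not independent replicates. The trend ran from -0.42 in WKY replicate 4, the rat with the most Agt, to 0.45 in SHR-Water replicate 2. Over 18 rats the Pearson r of log2 CPM of Agt with the trend was -0.52 (permutation p = 0.0262, or 0.0786 adjusted over the 3 library measures) with a Spearman's rho of -0.38 (permutation p = 0.121). The r was -0.32 after leaving out the 2 rats with the trends farthest from the median. The permutations over 18 rats took no account of group, so their p values mix differences between groups with relations inside them. Inside the groups, r was -0.95 in SHR-Water (exact permutation p = 0.00972, or 0.0875 adjusted over 9 relations), -0.76 in WKY (exact permutation p = 0.0861, adjusted 0.258) and -0.09 in SHR-TMAO (exact permutation p = 0.868, adjusted 0.868, n = 6 each). Without the 2 rats of each group farthest from its median trend, r was -0.90 in SHR-Water, -0.41 in WKY and -0.90 in SHR-TMAO (4 rats each), so the low value of SHR-TMAO rests on 2 of its rats. SHR-Water replicates 2, 3 and 4, the rats with the least Agt in that group, had the 3 highest trends of all rats. None of these relations passed the adjustment. The mean trend was highest for SHR-Water, at 0.19 (SD 0.29), while WKY had -0.07 (SD 0.22) and SHR-TMAO had -0.17 (SD 0.17). Relative to WKY, the mean trend was thus higher with water and lower with TMAO, whereas mean Agt was lower with each. With the trend as an offset, the log2 fold changes of Agt were -0.52, -0.29 and -0.83, close to those without it. The offset shifts a gene only by the trend fitted at its own length. Whether Agt still followed the trend after it was not tested.

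**Figure D4:**
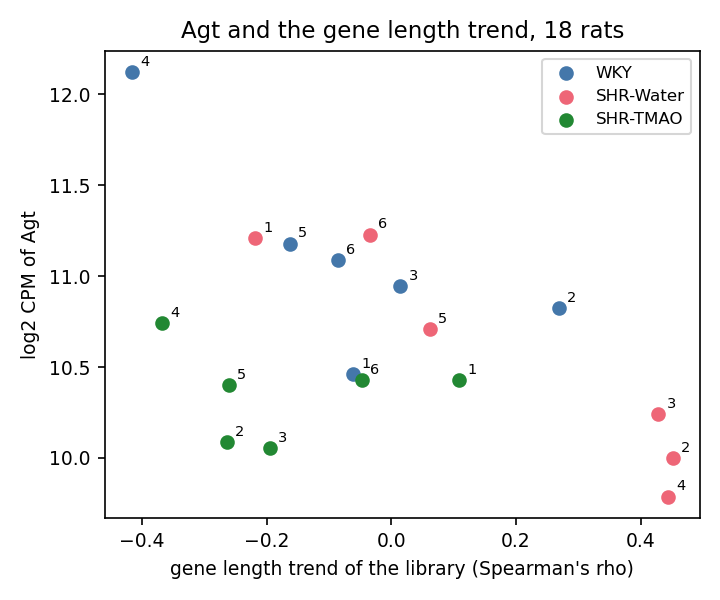
Log2 CPM of Agt against the gene length trend of the library (Spearman's rho, no unit) for 18 rats, coloured by group and numbered by replicate. The 6 SHR-Water rats run from high Agt at a low trend to low Agt at a high trend (r = -0.95), and over all 6 SHR-TMAO rats r is -0.09.

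Depth and mitochondrial share were set against Agt in the same way. Over the 18 rats, r was 0.05 with the total count (permutation p = 0.829, adjusted 0.829) and -0.30 with the mitochondrial share (permutation p = 0.220, adjusted 0.329), and rho was 0.09 (permutation p = 0.722) and -0.20 (permutation p = 0.432). Without the 2 rats farthest from the median, r was 0.14 with the total count and -0.64 with the mitochondrial share. Inside the groups, r with the mitochondrial share was -0.77 in WKY, 0.41 for SHR-Water and -0.59 for SHR-TMAO (exact permutation p = 0.0653, 0.386 and 0.253, adjusted 0.258, 0.579 and 0.569). With the total count it was 0.49, 0.28 and 0.17 in the same order (exact permutation p = 0.356, 0.619 and 0.713, adjusted 0.579, 0.796 and 0.802). These values depended on few rats: with the 2 farthest rats of each group left out, r with the mitochondrial share was -0.52, -0.44 and 0.56, and with the total count -0.15, -0.85 and 0.04 (4 rats each). Mitochondrial genes took a mean of 14.9% of counts in WKY, 21.4% for SHR-Water and 16.8% for SHR-TMAO. Without mitochondrial genes in the fit, the log2 fold change of Agt in SHR-TMAO against WKY was -0.84.

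The gene closest to Agt was higher, not lower, in both SHR groups. ENSRNOG00000018228 lies on the opposite strand at chr19:57286985-57319329, and the ends of both genes face each other across 2311 bases. The authors counted with the strand of the reads. ENSRNOG00000018228 ranged from 18.5 through a median of 26.5 to 40.3 CPM in WKY, from 41.4 through 45.7 to 50.0 CPM in SHR-Water and from 36.2 through 42.3 to 53.0 CPM in SHR-TMAO. SHR-Water and WKY did not overlap, and SHR-TMAO overlapped WKY at WKY replicate 4. The gene rose by a log2 fold change of 0.67 ± 0.17 (SE) in SHR-Water against WKY (edgeR, Benjamini-Hochberg adjusted p = 0.0278) and by 0.60 ± 0.17 in SHR-TMAO against WKY (edgeR adjusted p = 0.0457). Between SHR-TMAO and SHR-Water its log2 fold change was -0.06, with an interval of -0.29 to 0.18 (edgeR adjusted p = 0.767). The call in SHR-Water against WKY was lost without WKY replicate 3, 5 or 6 or SHR-Water replicate 3 or 5, with log2 fold changes of 0.57 to 0.80 over the 12 fits that leave out 1 rat and an edgeR adjusted p up to 0.0674. The call in SHR-TMAO against WKY was lost without WKY replicate 1, 3, 5 or 6 or SHR-TMAO replicate 1, 2, 3, 4 or 6, with log2 fold changes of 0.50 to 0.73 and an edgeR adjusted p up to 0.0873, and also with library totals (0.0513) and without the filter on low counts (0.0629).

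The other 5 of the 6 nearest tested genes, 3 on each side of Agt and up to 494680 bases away, were not called in any comparison. The 1 call of 6 in each comparison with WKY stands beside 6.13% and 7.75% of all genes called, and between SHR-TMAO and SHR-Water 0.0% of all genes were called. Across the 6 genes the log2 fold changes lay between -0.22 and 0.67 in SHR-Water against WKY, between -0.29 and 0.21 in SHR-TMAO against SHR-Water and between -0.37 and 0.60 in SHR-TMAO against WKY. The estimate for Agt was below all 6 in both comparisons with WKY, and the differences between genes were not tested. The correlation of the 6 with Agt over the 18 rats ran from -0.41 to 0.51, and the nearest gene was at -0.20.

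**Figure D5:**
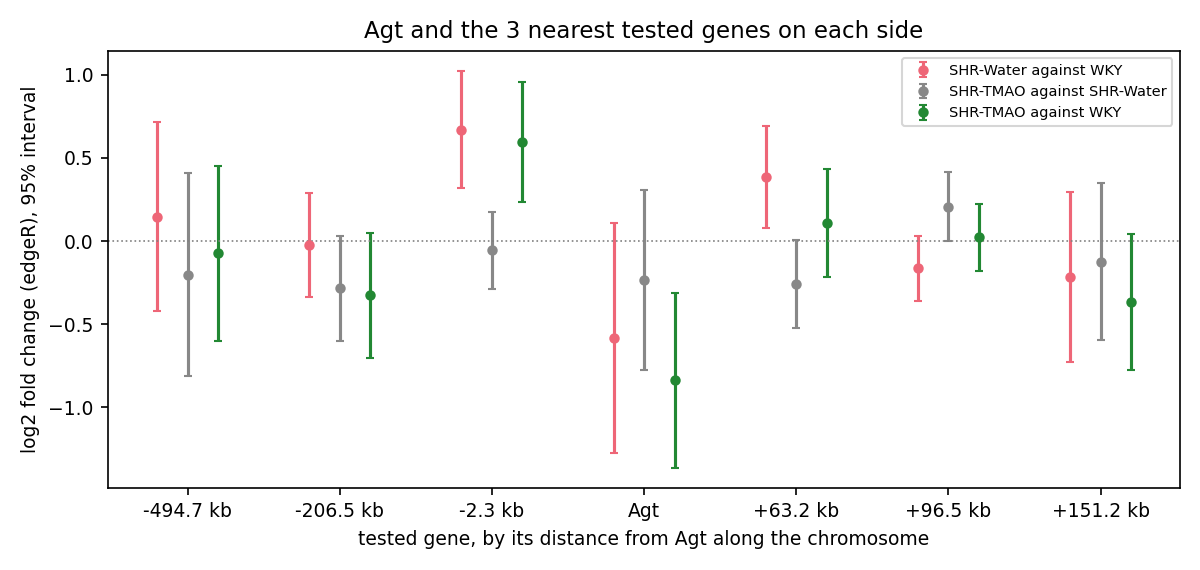
Log2 fold change with its 95% interval (edgeR) of Agt and the 3 nearest tested genes on each side, placed in order and named by their distance from Agt in kb, with 1 colour for each comparison. Agt lies lowest in both comparisons with WKY, and the gene 2.3 kb below it lies highest, at 0.67 and 0.60.

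Around ENSRNOG00000007467, the 6 nearest tested genes lay within 74168 bases, and edgeR called none of them, beside 6.13%, 0.0% and 7.75% of all genes called in the 3 comparisons. Their smallest edgeR adjusted p was 0.481 in SHR-Water against WKY, 0.0931 in SHR-TMAO against SHR-Water and 0.124 in SHR-TMAO against WKY. The nearest of them was ENSRNOG00000062101, the row in the place of Ace by gene order, which had 39 to 219 counts per rat. Its mean was 4.90 ± 1.22 CPM in WKY, 6.36 ± 4.01 CPM for SHR-Water and 4.69 ± 1.57 CPM for SHR-TMAO (SD, 6 rats per group). SHR-Water replicates 2 and 3 were the highest, at 12.4 and 9.97 CPM, and the other 4 SHR-Water rats lay within the range of the other groups or below it. The log2 fold changes were 0.36 (interval -0.42 to 1.13), -0.40 (-1.20 to 0.40) and -0.07 (-0.58 to 0.45), with edgeR adjusted p of 0.548, 0.515 and 0.905. Without SHR-Water replicate 2 the first 2 values were 0.09 and -0.11, and without SHR-Water replicate 3 they were 0.18 and -0.25. Per length, Agt was 161-fold higher than ENSRNOG00000062101 in SHR-Water replicate 2 and 2259-fold higher in WKY replicate 4, the ends of the range over the 18 rats.

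The 5 genes whose log2 CPM was most like that of Agt over the 18 rats had Pearson r from 0.87 to 0.91, and with group means removed from 0.86 to 0.93. Over all 12601 other genes the median r was -0.05, and 13.0% were above 0.5. The most alike was ENSRNOG00000033915 on chromosome 7 (chr7:117759083-117761931), at 604 ± 172 CPM in WKY, 463 ± 156 CPM for SHR-Water and 439 ± 43.8 CPM for SHR-TMAO (SD, 6 rats per group). Another of the 5 lies on the same chromosome at chr7:117706727-117722723. Inside the groups, r was 0.86 to 0.96 in WKY, 0.93 to 0.99 for SHR-Water and 0.31 to 0.54 for SHR-TMAO, and the difference between groups was not tested. All these genes were measured in the same 18 libraries, and the 5 genes had r from -0.78 to -0.58 with the gene length trend. Of the 5, 1 gene, on chromosome 8, was called, where 7.75% of all genes were called in that comparison: it was at 98.5 CPM in WKY and 67.5 CPM in SHR-TMAO, a log2 fold change of -0.55 (edgeR adjusted p = 0.0491). The 5 genes were chosen for their likeness to Agt in the same rats, so their direction is no independent result.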

How the data were processed

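RNA-seq was made from vWAT of 18 rats. The authors trimmed reads with cutadapt 2.5, aligned them with HISAT2 2.1.0 and counted them per gene with featureCounts 1.6.3 (strand option 2, Ensembl release 96, Rnor_6.0), per the file headers and the submitters' processing notes. The deposited values are whole-number counts per gene, neither normalized nor filtered by the authors, with exon lengths. Replicates were separate rats, and groups and replicate numbers came from the sample labels.

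Groups were compared in R 4.3.3 by the quasi-likelihood test of edgeR 4.0.16 (TMM, filterByExpr, Benjamini-Hochberg adjustment over all genes tested), fitted on the 2 groups compared, at an adjusted p under 0.05. CPM used TMM factors over 18 rats. FPKM used library totals. Log2 CPM had a prior count of 1. DESeq2 1.42.0, limma 3.58.1 (voom with sample quality weights), other scalings, filters and offsets, a replicate block and leaving out each rat were alternatives. Levels and spread without WKY replicate 4 and the relations to library measures were chosen after seeing the data. Exact permutation tests used all 924 assignments of 12 rats or all orders of 6, others 100000 permutations, all two-sided (Python 3.11.15, numpy 2.4.6, scipy 1.17.1). The edgeR test, its gene length offset, its replicate block, DESeq2 and limma voom were tried on counts simulated for SHR-Water against WKY. These counts had the same dispersion for every gene. A length trend was simulated only for edgeR with and without the offset. The other alternatives were not tried on simulated counts.

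The genes, lists and tests were chosen with earlier results of these data known. Genes named were the 2 identifiers, the 3 nearest tested genes on each side and the 5 most correlated with Agt. Without symbols, only a few are printed by identifier. ENSRNOG00000062101 was described further after its values were seen. Of 47357 RefSeq genes, 0 carried an Ensembl rat identifier, so gene lists by symbol were not used here. RefSeq (GRCr8) served for gene order and spans alone, and no sequence was printed. Library totals of 10774133 to 18874161 counts leave genes of few counts the least certain.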

Additional observations from a re-analysis of the deposited data

Results flagged for a closer look

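Of 18 groups of 6 values looked at, 2 held a rat far from the others, where chance gives about 1 in 20. Agt in WKY replicate 4 was at 4465 CPM, and the next WKY rat at 2322 CPM. The gap was 0.702 of the range of the group, above Dixon's 95% limit for 6 samples, and on the log2 scale it was 0.567 and under that limit. This library also had the lowest gene length trend, -0.42, and the lowest mitochondrial share, 7.08%. Their part in the value was not tested. ENSRNOG00000062101 in WKY replicate 1 was at 7.22 CPM, and the next WKY rat was at 4.90 CPM, a gap of 0.689 of the range. For this gene the gap on the log2 scale was not compared with the limit.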

How the results depend on the processing

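For Agt in SHR-TMAO against WKY, the log2 fold change was -0.84 as reported (adjusted p 0.0517). It passed the threshold at -0.84 with DESeq2, -0.64 with limma voom, -0.85 with library totals and -0.83 with the gene length offset. It passed too with the replicate number as a block (pairing) at -0.75 (adjusted p 0.0456), and with block and gene length offset at -0.76 (adjusted p 0.0351). The exact permutation test, with a mean difference of -0.75, was under 0.05 when adjusted over 3 comparisons, not over all genes. The labels give no pairing by number, and in no comparison did every pair of same-numbered rats deviate together: the correlation was over 0.1 in 5, 0 and 1 of 6 pairs in SHR-Water against WKY, SHR-TMAO against SHR-Water and SHR-TMAO against WKY. The block moved the calls over all genes in SHR-TMAO against WKY from 995 to 647 and in SHR-Water against WKY from 798 to 1070, and in SHR-TMAO against WKY ENSRNOG00000018228 lost its call (adjusted p 0.0853, or 0.0668 with the offset too). In SHR-Water against WKY that gene lost the call under block and offset together (adjusted p 0.0513). With each rat left out, the value of Agt in SHR-TMAO against WKY ran from -0.95 to -0.54, with the highest adjusted p at 0.111. It passed without WKY replicates 1, 2 and 4 (adjusted p 0.0349, 0.0398 and 0.0459), where edgeR called 644, 1336 and 1563 genes. RLE factors, no filter, the fit of 18 rats and leaving out mitochondrial genes gave adjusted p of 0.0551 to 0.0828. In SHR-Water against WKY the alternatives gave -0.74 to -0.29 and none passed, with the lowest adjusted p at 0.0557 (limma voom). In SHR-TMAO against SHR-Water limma voom turned the value to 0.030, and the leave-outs gave -0.36 to -0.08. ENSRNOG00000062101 in SHR-TMAO against WKY ran from -0.25 to 0.071 with 1 rat left out and changed sign in 3 of 12. The cause of these shifts was not tested. DESeq2 and limma voom called 1708 and 2566 genes in SHR-TMAO against WKY, against 995 by edgeR. The planned ratio of Ace to Agt and their correlation were not run. They were planned with ENSRNOG00000007467, which had no counts, and the name Ace was given to neither row. Depth limits only genes of few counts, such as ENSRNOG00000062101.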
